A study of Homo sapiens with 12 samples.

Results

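The 9 genes described here, ALB, AFP, TTR, APOA1, APOB, SERPINA1, FGB, TF and AHSG, encode proteins that the liver secretes into the blood. They were followed in chromatin accessibility data from U2OS, a human osteosarcoma (bone tumour) cell line. A site counted as belonging to a gene when it touched the gene body or the 50 kb on either side of it on GRCh38. By that rule 125 of the 311447 distinct regions in the 9 peak lists were members. Entries of the SOX2-set lists, described below, counted only at an irreproducible discovery rate (IDR) of at most 0.05. The IDR is the expected share of peaks that do not recur between replicates. The FOXA2-set lists give no IDR and entered without that filter. With every listed entry, 176 of 399183 regions were members. The windows of ALB and AFP, neighbours on chromosome 4, overlap, so some sites belong to both genes. The rule is one of distance alone, and the last sites on either side of its edge were a peak 49708 bp from FGB in 1 full-length FOXA2 list and a region 50043 bp from TTR in both CTD-deletion lists.

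The assay was ATAC-seq, in which a transposase cuts open chromatin and peaks mark where cuts pile up. The study holds 12 samples in 6 groups of 2, which the labels call biological replicates. In the FOXA2 set the groups were U2OS labelled wild type, U2OS with Tet-on FOXA2 (the full-length factor) and U2OS with Tet-on FOXA2dCTD, which lacks the C-terminal domain (CTD). Each of these 6 libraries has its own peak list. In the SOX2 set the groups were a wild type whose label also names the SOX2 cell line, U2OS with Tet-on SOX2, and U2OS with Tet-on SOX2FOXA2CTD, a fusion of SOX2 to the FOXA2 CTD. This set has 1 list per group, which gives a −log10 p for each of 2 inputs but no list per library. All construct samples received 500 ng/ml doxycycline for 4 days, and the series describes the constructs as Flag-tagged. The labels give no genotype or treatment for either wild type, although the shared protocol text mentions doxycycline for all, so whether wild-type cells were treated is not known here. Nothing in the labels says whether a Tet-on line is 1 clone.

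FOXA2 is a forkhead factor of the liver and of the endoderm from which the liver forms, and it is known as a pioneer factor, one that can bind its sites in closed chromatin. FOXA proteins bind regulatory elements of several of the genes below in hepatocytes, the albumin enhancer being the textbook case. SOX2 is an HMG-box pioneer factor of pluripotent and neural cells with no established role in liver genes. U2OS cells are not hepatocytes, and the windows show what each construct's lists held at liver genes in another cell type.

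Promoters were examined first because they are the sites where the sequence could be read. RefSeq promoter sequences (GRCh38.p14, 250 bases before and 50 bases from each start on) were at hand for 6 of the 9 genes, in 9 entries: 1 each for ALB, AFP and AHSG and 2 each for FGB, SERPINA1 and TF. Of the 9 entries, 2 were covered, by 1 bp or more, by a peak in any list, where 52.1% of the 34961 promoters in the table were. They are shown beside 2 that were never covered, with the forkhead core TGTTT or its reverse complement AAACA and the SOX motifs ACAAAG and ACAATG (both strands searched) in capitals where present.
TF, first start, chr3:133661748-133662047, plus strand: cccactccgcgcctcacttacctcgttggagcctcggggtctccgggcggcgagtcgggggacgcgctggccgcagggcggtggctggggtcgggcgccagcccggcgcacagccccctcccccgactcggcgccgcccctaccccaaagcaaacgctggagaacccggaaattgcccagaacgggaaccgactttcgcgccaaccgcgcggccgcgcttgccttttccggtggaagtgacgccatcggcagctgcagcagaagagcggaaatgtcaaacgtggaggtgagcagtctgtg
SERPINA1, inner start, chr14:94388553-94388852, minus strand: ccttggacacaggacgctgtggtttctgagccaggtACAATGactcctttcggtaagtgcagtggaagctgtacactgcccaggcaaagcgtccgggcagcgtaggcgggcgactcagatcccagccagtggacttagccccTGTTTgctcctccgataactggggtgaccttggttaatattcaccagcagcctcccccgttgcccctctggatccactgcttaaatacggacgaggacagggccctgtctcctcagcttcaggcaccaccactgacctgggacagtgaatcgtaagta
ALB, chr4:73404037-73404336, plus strand: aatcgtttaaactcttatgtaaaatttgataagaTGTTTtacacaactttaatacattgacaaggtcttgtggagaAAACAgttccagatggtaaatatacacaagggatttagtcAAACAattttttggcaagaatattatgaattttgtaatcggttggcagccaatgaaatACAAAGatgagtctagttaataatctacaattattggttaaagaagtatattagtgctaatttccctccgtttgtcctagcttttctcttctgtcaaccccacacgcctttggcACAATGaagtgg
AHSG, chr3:186612810-186613109, plus strand: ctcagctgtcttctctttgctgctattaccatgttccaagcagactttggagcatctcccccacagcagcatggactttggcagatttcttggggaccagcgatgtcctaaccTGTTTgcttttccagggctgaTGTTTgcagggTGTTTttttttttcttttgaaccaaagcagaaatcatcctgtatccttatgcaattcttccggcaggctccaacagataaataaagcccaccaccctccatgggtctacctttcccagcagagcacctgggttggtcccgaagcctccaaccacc
The first TF promoter, which carries iron transport protein transferrin's upstream start next to the start of TOPBP1, had 36 CpG dinucleotides and was 69.3% G or C. It held none of the motifs searched and was covered by a peak in 6 lists: both full-length FOXA2 lists, CTD-deletion list 2, and all 3 lists of the SOX2 set. In CTD-deletion list 1 the nearest peak lay 20 bp away, and in labelled wild-type lists 1 and 2 it lay 88018 and 16671 bp away. The inner SERPINA1 promoter had 12 CpG dinucleotides, with a peak in full-length list 1 and in the SOX2-set wild-type list.

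The other 7 promoter entries were covered in none of the 9 lists. The ALB promoter, with 4 CpG dinucleotides, held 3 copies of the forkhead core, 1 ACAAAG and 1 ACAATG. The AHSG promoter, with 3 CpG dinucleotides, held 3 copies of the forkhead core. AFP had 1 CpG dinucleotide and no motif, and the overlapping FGB entries had 0. The median over all 34961 promoters in the table was 14 CpG dinucleotides. The second TF entry, chr3:133746143-133746442, held 23 CpG dinucleotides and was likewise not covered in any list. The full forkhead motif TGTTTAC was in none of the 9 entries and in 3.42% of all promoters. Its core TGTTT was in 6 of 9 and in 44.4% of all, ACAAAG in 3 of 9 and in 16.1%, and ACAATG in 3 of 9 and in 10.7%. The overlapping FGB entries share the same ACAAAG and the same TGTTT, which were counted for both entries. A match is a string of letters in a window and was not tied to binding.

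Peaks in the 9 windows followed the length of the lists. The lists labelled wild type held 8 peaks of 19862 and 7 of 25088 in the windows. Full-length FOXA2 lists held 61 of 161136 and 24 of 57946, and CTD-deletion lists held 33 of 78820 and 55 of 146854. The share of a list's peaks that fell in the windows was 0.0403% and 0.0279% in the labelled wild type, 0.0379% and 0.0414% with full-length FOXA2, and 0.0419% and 0.0375% with the CTD deletion. The groups overlapped. The mean share was 0.0396% ± 0.00252 (SD, n = 2) with full-length FOXA2 against 0.0341% ± 0.00875 (SD, n = 2) in the labelled wild type, an exact two-sided permutation p of 0.667 where the smallest that 2 against 2 allows is 0.33. With the CTD deletion it was 0.0397% ± 0.00312 (SD, n = 2), again with an exact permutation p of 0.667.

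In peaks per Mb, the labelled wild-type lists had 7.48 and 6.54 in member windows against 7.99 and 9.03 over all protein-coding gene windows. Full-length list 1 had 57.0 peaks per Mb of member window and 57.0 per Mb of all windows, full-length list 2 had 22.4 and 22, and the CTD-deletion lists had 30.8 and 51.4 against 28.8 and 52.5. The SOX2-set wild-type list had 27.1 against 19.6 (29 of its 48142 passing entries in member windows). The SOX2 list had 31.8 against 24.6 (34 of 65628), and the fusion list 30.8 against 27.7 (33 of 75544). Within the FOXA2 set TF, whose window is the longest at 0.235 Mb, had the most peaks and SERPINA1 the fewest.

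**Figure D1:**
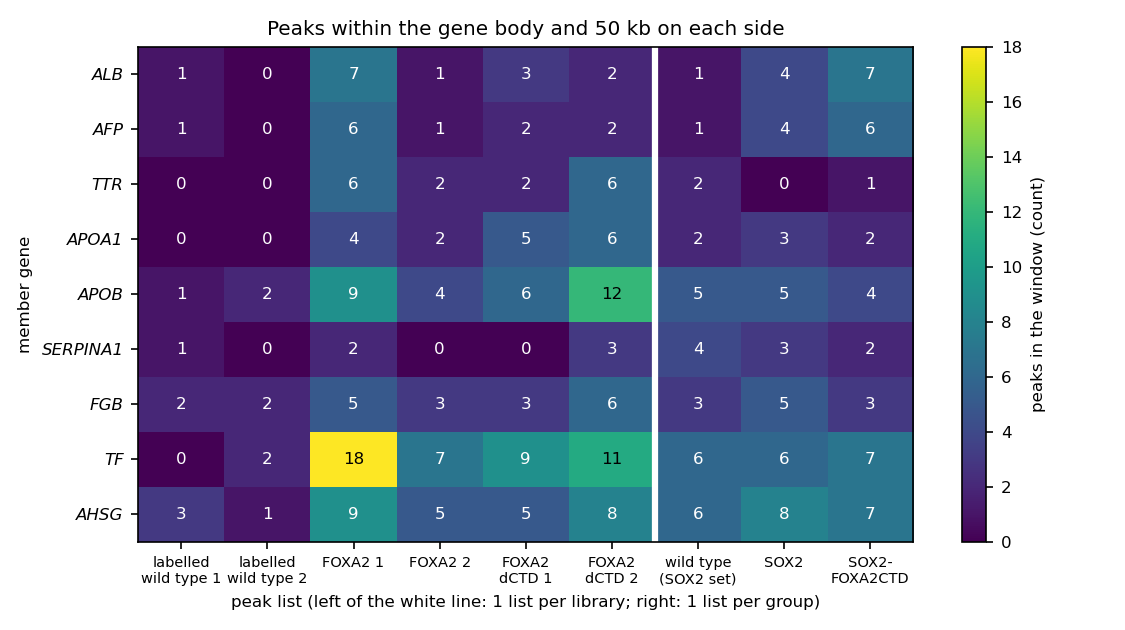
Peaks in each member gene's window (rows) in each of the 9 peak lists (columns); the number in a cell is the count of peaks in the gene body and 50 kb on each side. TF reached 18 peaks in full-length list 1, while SERPINA1 had 0 in full-length list 2 and in CTD-deletion list 1.

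For the calls, the 6 lists of the FOXA2 set were merged into 276021 regions, of which 108 lay in member windows. A region was gained with a construct if both of its libraries and neither library labelled wild type had a peak there, and lost in the opposite case. With full-length FOXA2, 11 of the 108 regions (10.2%) were gained, where 9.06% of all regions were. With the CTD deletion, 10 of 108 (9.26%) were gained against 8.72% of all. The member windows therefore stood near the background for both constructs, which share the same control lists. Only 1 member region was lost with full-length FOXA2, where 0.155% of all regions were, and 0 with the CTD deletion, where 0.0576% were. As presence calls on 2 libraries against 2, these have no p-value.

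The direct comparison of the FOXA2 constructs gave 2 regions gained with the full-length factor and absent from both CTD-deletion lists, where 1.65% of all regions were, and 2 of the reverse kind, where 1.94% were. The first pair lay near TTR and AHSG, the second near FGG and in TF. Of the 108 regions, 75 (69.4%) were in a single list, against 69.0% of all. Those 75 were split as 33 in full-length list 1, 28 in CTD-deletion list 2, 11 in CTD-deletion list 1, 2 in full-length list 2 and 1 in labelled wild-type list 1.

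These counts rest on lists of very unequal length. Under other settings they are given for the member windows only. The share over all regions was not counted again at those settings, so no background stands beside them. With each list cut to its 19862 strongest peaks by −log10 p, 0 regions were gained with full-length FOXA2 and 1 with the CTD deletion. With a common −log10 p threshold of 5.43, 4 and 3 were gained. Without full-length library 2 the full-length count was 50, and without CTD-deletion library 1 or 2 the CTD-deletion count was 44 or 25. Without labelled wild-type library 2 the losses were 3 and 2. The difference between these construct-specific counts (full length minus CTD deletion), 0 as reported, was 31 without full-length library 2, and -26 and -10 without CTD-deletion library 1 and 2. Among the 4 lists with mitochondrial peaks, the contrast of labelled wild-type library 1 with full-length library 1 gave 54 gained regions, and in the 2 lists without them library 2 against library 2 gave 18. In the lists with mitochondrial peaks the CTD deletion gave 14, but there both of its libraries had to have a peak. That count is therefore not like the 54 from full-length library 1 alone.

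**Figure D2:**
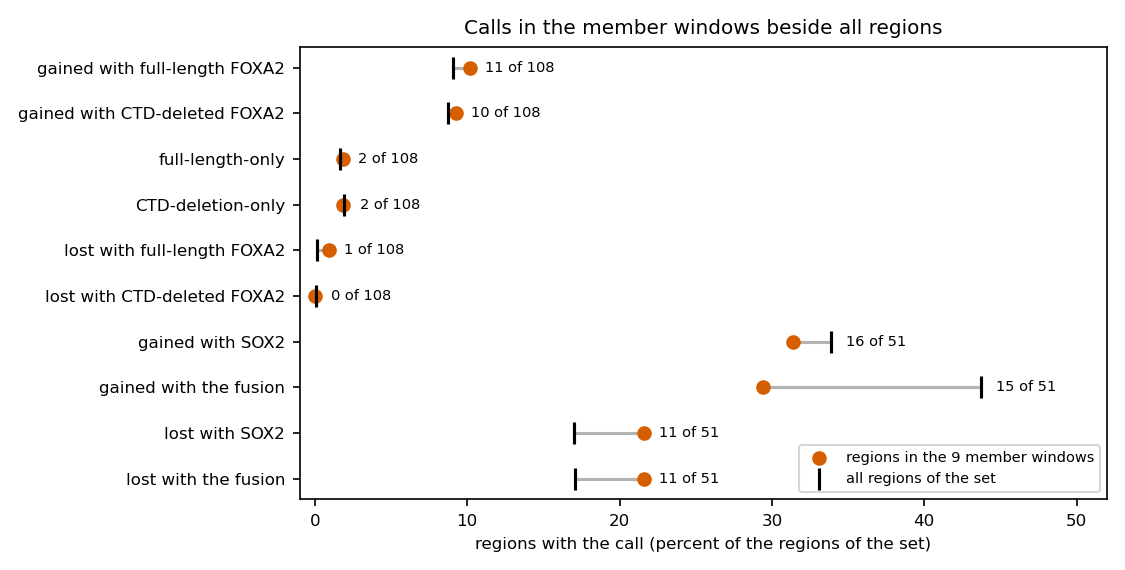
Percent of regions with each call in the 9 member windows (orange points, with counts) and over all regions of the set (black ticks). The points for the FOXA2 constructs lie close to their ticks, and the fusion's gained share lies furthest from its tick, at 29.4% against 43.7%.

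**Figure D3:**
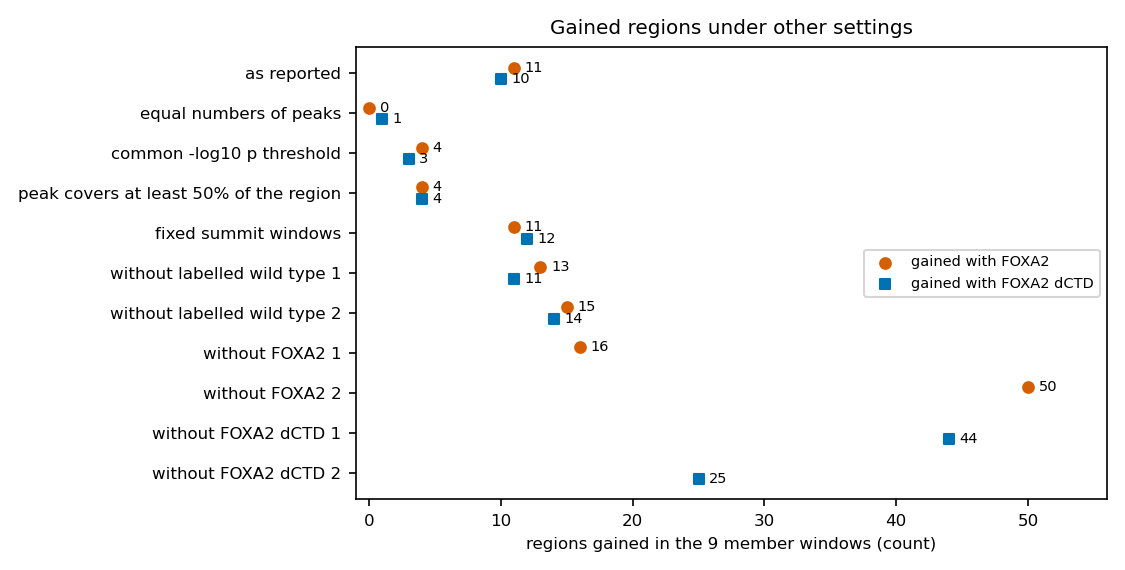
Regions gained in the member windows (x axis, count) with full-length FOXA2 (circles) and CTD-deleted FOXA2 (squares), as reported and under other settings. With equal numbers of peaks the counts were 0 and 1, and without full-length library 2 or CTD-deletion library 1 they were 50 and 44.

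ALB encodes serum albumin, the main protein of plasma, and AFP encodes its fetal counterpart alpha-fetoprotein. In the FOXA2 set the ALB window held 8 regions and the AFP window 7. No FOXA2-set region that was gained lay inside the ALB gene. At chr4:73446232-73446849, in the AFP gene body, full-length list 1 had a peak at rank 45174 (top 28.0% of the list, 3.87-fold enrichment over background), full-length list 2 at rank 50774 (top 87.6%, 4.77-fold) and CTD-deletion list 1 at rank 26498 (top 33.6%, 4.17-fold). CTD-deletion list 2 and both labelled wild-type lists had none, so the site was gained with full-length FOXA2. The same stretch was also listed with SOX2 and with the fusion, and in the SOX2-set wild type its entry failed with an IDR of 0.176.

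The site chr4:73380709-73381229, 23058 bp below the lower-coordinate end of ALB and in no protein-coding gene, was gained with the CTD deletion. CTD-deletion lists 1 and 2 had it in their weaker parts, top 74.2% and 66.8%, while full-length list 1 had it at top 11.5% and full-length list 2 lacked it. Another site in AFP, chr4:73450423-73450804, was open in labelled wild-type list 1 (top 26.3%, 6.25-fold), in both CTD-deletion lists (top 74.9% and 14.3%) and in all 3 lists of the SOX2 set, but in neither full-length list. Because labelled wild-type list 2 also lacked it, it was neither gained nor lost.

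TTR encodes transthyretin, a carrier of thyroid hormone and of retinol-binding protein. Neither list labelled wild type had a peak in its window, and 2 regions were gained with full-length FOXA2. One, chr18:31555858-31556350, 6850 bp from DSG2 and 35527 bp from TTR, was in full-length lists 1 and 2 at top 33.6% and 71.1% and in no CTD-deletion list. The other, chr18:31644870-31645460 inside the neighbour B4GALT6, was in them at top 8.62% and 43.6%, and in CTD-deletion list 1 at top 41.5%. Its fold enrichment was 5.49 and 6.82 in the full-length lists and 3.82 in CTD-deletion list 1. The gene body itself, of 6945 bp, held no gained region with any construct.

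APOA1, the main protein of high-density lipoprotein, sits in a cluster with APOC3, APOA4 and APOA5, which encode further apolipoproteins. Its own gene body carried a region gained with both FOXA2 constructs, chr11:116835844-116836504. The ranks were 29816 and 54505 in the full-length lists (top 18.5% and 94.1%) and 20015 and 5628 in the CTD-deletion lists (top 25.4% and 3.83%), with fold enrichments of 4.42, 4.43, 4.48 and 6.80. All 4 peaks stayed above the common −log10 p threshold, whereas with equal numbers of peaks only CTD-deletion list 2 kept it. All 3 lists of the SOX2 set also had this site, the wild type among them at top 34.4%.

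A second region in the cluster, chr11:116791007-116791778 in APOA5, was in all 4 construct lists too but weakly, between top 34.1% and top 99.8%, and dropped out of every list at the common threshold. The third, chr11:116787751-116788487, covered the promoter of ZPR1 and was gained with the CTD deletion (top 65.1% and 17.4%). It was at top 27.4% in full-length list 1 and absent from full-length list 2, and the SOX2-set wild type had it with an IDR of 0.00483. No region of the APOA1 window was called in a list labelled wild type.

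APOB encodes apolipoprotein B, the structural protein of low-density lipoprotein. Its window holds no other protein-coding gene, and 19 regions fell in it. The region gained with both FOXA2 constructs, chr2:21027420-21028113, lay in the gene body, at top 27.0% and 62.8% in the full-length lists and top 56.9% and 27.2% in the CTD-deletion lists. It was open in all 3 lists of the SOX2 set as well. A second gene-body site, chr2:21038472-21039143, was in all 4 construct lists and in labelled wild-type list 2 (top 53.6%, 5.61-fold), and so was not gained.

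Of the member-window regions passing in all 3 SOX2-set lists, that second site had the widest range of rank taken as a percent of the list. It stood at rank 45156 (top 93.8%, −log10 p 6.96) in the wild type, at rank 12488 (top 19%, −log10 p 20.7) with SOX2 and at rank 787 (top 1.04%, −log10 p 31.5) with the fusion. As it passed in all 3 lists, no call by presence records this order. Each list also holds the −log10 p of its 2 inputs, and the value above is the lower one. These inputs had 6.96 and 9.03 in the wild type, 25.3 and 20.7 with SOX2, and 32.7 and 31.5 with the fusion. The values of the groups did not overlap. The inputs are taken to be the group's 2 libraries, and the difference was not tested. Below the gene, chr2:20972320-20972999 was in labelled wild-type list 2 and all 4 construct lists, and chr2:20962726-20963391 in labelled wild-type list 1, both full-length lists and CTD-deletion list 2.

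SERPINA1 encodes alpha-1 antitrypsin, the inhibitor of neutrophil elastase. It was the only member whose window held no region gained with either FOXA2 construct. Of its 5 FOXA2-set regions, 4 were in a single list. The fifth, chr14:94423342-94423834, was in labelled wild-type list 1 and full-length list 1. The inner promoter shown above carried the full-length list 1 peak chr14:94388789-94389137 at top 67.1%.

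FGB encodes the beta chain of fibrinogen and lies between PLRG1 and the genes of the other chains, FGA and FGG. It had the single region lost with full-length FOXA2, chr4:154560740-154561364, which lies 1616 bp below the lower-coordinate end of FGB, on the side of its start. Labelled wild-type lists 1 and 2 had it at top 56.5% and 38.6% (5.22-fold and 6.24-fold), and CTD-deletion lists 1 and 2 at top 26.8% and 61.3% (4.35-fold and 3.27-fold), while neither full-length list had a peak. Full-length list 1 is the longest of the lists. Full-length list 2 had different peaks nearby. One, chr4:154562502-154562701 at top 79.6%, was in no other list and lay 29 bp from the first FGB promoter entry. Another, chr4:154559499-154559756 at top 94.1%, lay 3224 bp from FGB and was in no other list of the FOXA2 set. It overlapped passing entries of the SOX2-set wild-type and SOX2 lists. The lost region itself passed in all 3 SOX2-set lists, at top 58.5% in the wild type, 89.8% with SOX2 and 13.1% with the fusion.

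On the other side of FGB, 911 bp from FGG, chr4:154602693-154603225 was the CTD-deletion-specific region of this window. It stood at top 22.4% (4.77-fold) and 5.80% (6.38-fold) in CTD-deletion lists 1 and 2, was in no other list of the FOXA2 set and had no passing entry in the SOX2 set. It was the only gained region of the 9 windows that kept both of its construct peaks with equal numbers of peaks. The promoter of PLRG1, a splicing factor, at chr4:154550080-154550766 was open in all 6 lists, between top 0.874% and top 45.7%, and in all 3 lists of the SOX2 set.

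TF encodes transferrin, and its window held 26 regions. The strongest region gained with both FOXA2 constructs, by mean rank over the construct lists, was chr3:133628988-133629897 inside TOPBP1, a DNA replication and repair gene. It stood at top 12.3% and 30.5% in the full-length lists and 10.5% and 14.4% in the CTD-deletion lists, with fold enrichments of 4.97, 7.84, 5.93 and 5.17. All 4 peaks passed the common threshold, and no list of the SOX2 set had a passing entry there. It is 32101 bp from the first transferrin start.

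The gained region over the TF and TOPBP1 promoters, chr3:133661329-133662266, contains the whole sequence printed above. It was at top 11.4% and 79.6% in the full-length lists and 66.9% and 34.1% in the CTD-deletion lists, and at top 26.4%, 39.4% and 80.2% in the SOX2-set wild-type, SOX2 and fusion lists. A further 2 regions inside TF were gained with the CTD deletion. The first, chr3:133663666-133664107, was at top 37.8% and 34.1% and was also in full-length list 2, and the second, chr3:133668575-133669133, was at top 57.5% and 42.5% and in neither full-length list. In RAB6B, chr3:133834902-133835818 was gained with full-length FOXA2 at top 28.0% and 94.1%, with a peak in CTD-deletion list 2 at top 59.0%.

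The remaining TF-window sites in both libraries of a construct were also in labelled wild-type list 2. One was the promoter of SRPRB, a subunit of the signal recognition particle receptor, at chr3:133805405-133806383, top 4.32% to 13.8% in the construct lists and top 45.3% in labelled wild-type list 2. The other, chr3:133644611-133645215 in TOPBP1, was at top 62.8% in that list and at top 14.6% to 38.7% in the construct lists. In the SOX2 set the wild type had no entry there at any IDR, and both the SOX2 and fusion lists did.

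AHSG encodes fetuin-A, a plasma inhibitor of calcification, next to FETUB and HRG, which encode fetuin-B and histidine-rich glycoprotein. Both of its gained regions were gained with full-length FOXA2. The region chr3:186566970-186567616 at the TBCCD1 promoter was at top 23.1% and 38.7% there and at top 60.0% in CTD-deletion list 2, and the region chr3:186593888-186594327 was at top 33.3% and 62.8% and in neither CTD-deletion list. Inside AHSG, chr3:186616891-186617546 was open in labelled wild-type list 1 (top 54.7%), in both full-length lists and CTD-deletion list 2, and in all 3 SOX2-set lists.

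The strongest site of all the windows in the FOXA2 set was the shared promoter of DNAJB11, an endoplasmic reticulum chaperone gene, and TBCCD1 at chr3:186570136-186571013. It ranked 1497 and 2503 in the labelled wild type, 1061 and 493 with full-length FOXA2 and 4213 and 1106 with the CTD deletion. This promoter and that of PLRG1 were the 2 member-window regions found in all 6 lists (1.85%, against 3.15% of all regions), and neither belongs to a plasma protein gene.

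**Figure D4:**
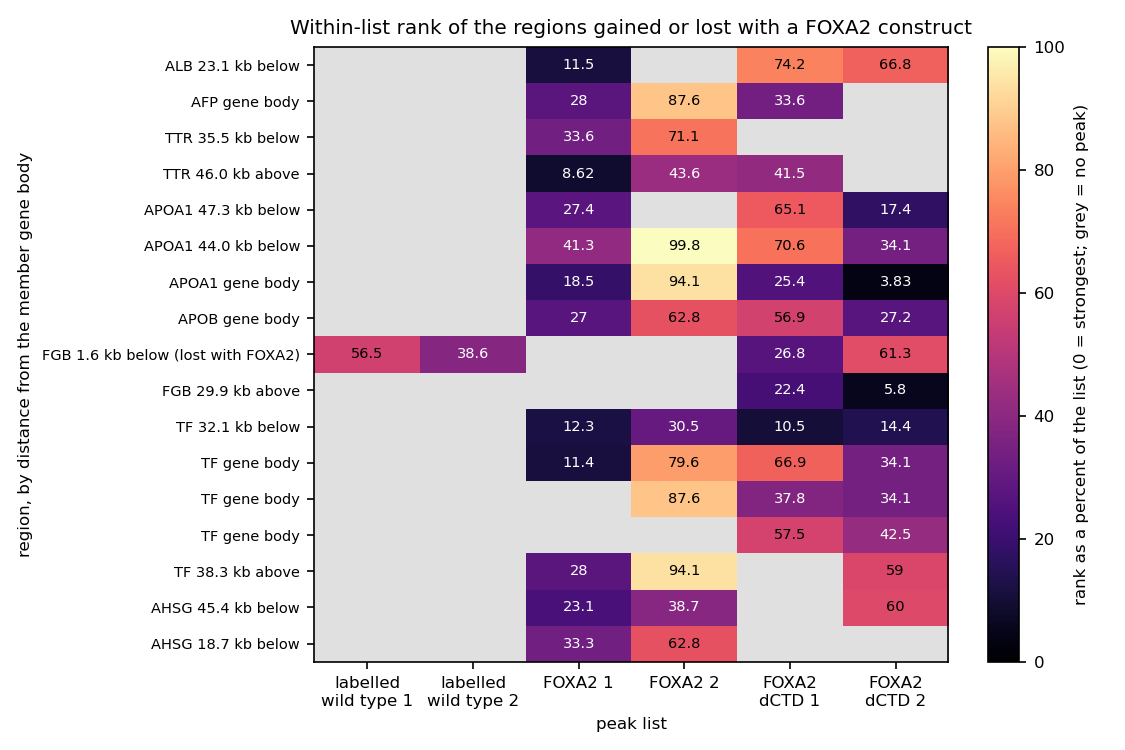
Within-list rank, as a percent of the list, of the 16 regions gained with either FOXA2 construct and the 1 lost with full-length FOXA2 (rows, by distance from the member gene) in the 6 lists of the FOXA2 set (columns); grey cells have no peak. Both wild-type columns are grey for all gained rows by the rule, and dark cells such as 3.83% for the APOA1 gene body in CTD-deletion list 2 are the strongest.

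Gained regions in the windows ranked lower than gained regions in general. Their median rank stood at top 27.0% in full-length list 1 and 71.1% in full-length list 2, where all regions gained with that factor had 22.9% and 49.1%. For the CTD deletion the medians were 57.2% and 34.1% against 42.3% and 27.9%. In position, the 16 regions gained with either construct (14.8% of the 108, against 13.5% of all) fell 6 times in a member gene body, 6 times in another gene body and 4 times in no protein-coding gene, where all 108 regions divided as 28, 29 and 51. One covered a member promoter, that of TF.

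Several of these regions were open in the other wild type. A passing entry in the SOX2-set wild-type list was present at 4 of 11 regions gained with full-length FOXA2 (36.4%, against 20.9% of all such regions) and at 4 of 10 gained with the CTD deletion (40.0%, against 26.4%). The regions in the APOA1 gene body, in the APOB gene body and at the TF promoter were in both groups. Counting entries that failed the IDR, 10 of the 16 regions gained with either construct (62.5%, against 38.9% of all such regions) had an entry in that list and 6 had none. The regions with a passing entry would not be called gained against that wild type.

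In the SOX2 set, passing entries were merged into 102872 regions, 51 of them in member windows. A region was gained when the construct's list had a passing entry and the wild-type list had none. With SOX2, 16 of 51 (31.4%) were gained, where 33.9% of all regions were, and 11 (21.6%) were lost, where 17.0% were. With the fusion, 15 (29.4%) were gained against 43.7% of all, and 11 were lost against 17.1% of all. The 2 comparisons share the wild-type list, and with 1 list per group neither has a test. All 3 lists held 16 of the 51 regions (31.4%, against 24.7%).

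Some of these gains sat on an entry that failed the IDR in the wild type. Of the 16 regions gained with SOX2, 7 had a failing wild-type entry (37.4% of all regions gained with SOX2 did), and of the 15 gained with the fusion, 4 did (28.1% of all). If a region counted as gained only with no wild-type entry at any IDR, the counts were 9 and 11. Losses sat on failing entries as well: 5 of the 11 regions lost with SOX2 had a failing SOX2 entry (65.8% of all regions lost with SOX2 did), and 9 of the 11 lost with the fusion had a failing fusion entry (75.0% of all). Counted only where the construct's list had no entry at any IDR, the losses were 6 with SOX2 and 2 with the fusion. With each list at the length of the shortest, they were 4 and 10, and the losses were 15 and 19.

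ALB and AFP, the 2 albumin-family genes of the list, had the most fusion-gained sites, 6 and 5, of which 5 are the same sites seen from both genes. The wild-type list had 1 passing entry in either window and the fusion list 7 and 6. Inside ALB, chr4:73406372-73407664 passed with the fusion alone (rank 40761, top 54.0%, IDR 0.00598), and its SOX2 entry failed with an IDR of 0.524. Also inside ALB, chr4:73415816-73416344 passed with the fusion at rank 21595 (top 28.6%, IDR 0.00122) and with SOX2 at rank 64833 (top 98.8%, IDR 0.0439). Between the genes and around them, chr4:73384893-73385471 and chr4:73431016-73431897 passed with the fusion only, at top 58.6% and 53.4%.

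Further along, 10504 bp from the albumin-family gene AFM, chr4:73470333-73471241 passed with SOX2 at top 59.9% and with the fusion at top 48.4%, and had no wild-type entry. The AFP site chr4:73446372-73446734 passed with SOX2 at top 89.8% and with the fusion at top 90.7%. The only site of the pair open in the wild type, chr4:73450319-73451060 in AFP, was at top 33.1% there and at top 98.8% and 89.8% with SOX2 and the fusion. None of the ALB sites gained with the fusion inside the gene had a peak in any FOXA2-set list.

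The lipoprotein genes gave few gains. In APOB, chr2:21074298-21074875, 30225 bp above the gene, was gained with SOX2 (top 51.4%, IDR 0.00276) and with the fusion (top 29.7%, IDR 0.00125). The APOB entries chr2:20992160-20992850 and chr2:21042890-21043818 passed in the wild type, and the fusion list's entries there failed with IDRs of 0.0781 and 0.288. The APOA1 window had 3 regions, and 1 of them, in APOA5, was gained with SOX2 at top 75.1%, with its wild-type entry failing at an IDR of 0.526 and its fusion entry at 0.0632.

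TTR and SERPINA1 held more losses than gains. Both TTR-window regions, chr18:31603049-31603711 and chr18:31626261-31626765, passed in the wild type at top 88.8% and 77.7%. Neither passed with SOX2, and the fusion list kept the second. SERPINA1 had 3 regions lost with both constructs: one over its inner promoter, chr14:94388350-94389058 (top 96.0%, IDR 0.0410), and ones at chr14:94373631-94374295, 2452 bp from the gene (top 32.8%, IDR 0.00102), and chr14:94342251-94342889. All 3 had a failing fusion entry, with IDRs of 0.172, 0.298 and 0.205 in that order, and the second also had a failing SOX2 entry with an IDR of 0.237. That second region was the strongest of the regions with a passing entry in the wild type alone. In the same window SOX2 had 2 gained regions and the fusion 1, all at top 83.4% or weaker.

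In the FGB window, chr4:154518143-154518954 was a gain for SOX2 and for the fusion at the weak end of both lists, top 97.4% and 98.0%. A second, chr4:154622518-154622983, 9862 bp from FGG, was gained with SOX2 at top 73.7%. The site chr4:154559278-154559850, 3130 bp from FGB, passed in the wild type and with SOX2 but not with the fusion. The PLRG1 promoter was among the strong sites of every list, at top 20.7%, 6.64% and 13.1%.

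At TF, chr3:133799872-133800638 inside SRPRB was gained with SOX2 at top 39.5% (IDR 0.00104) and with the fusion at top 53.7% (IDR 0.00401). The TOPBP1 site at chr3:133644734-133645199 was gained with SOX2 at top 86.4% and with the fusion at top 57.0%. Lost with both were chr3:133630431-133630937 in TOPBP1, whose fusion entry failed with an IDR of 0.055, and chr3:133742137-133743249 in TF, the latter 2894 bp from the second TF promoter. The SRPRB sites chr3:133805232-133806575 and chr3:133821705-133822424 passed in all 3 lists, and chr3:133818676-133819181 in the wild-type and fusion lists.

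AHSG had the most SOX2-set regions, 11. Of these, 2 were called gained for SOX2 and the fusion alike: chr3:186583786-186584607 in DNAJB11, at top 72.4% with SOX2 and 11.5% with the fusion (IDR 0.00982 and 0.000159), and chr3:186596653-186597299, at top 86.2% and 46.8%. Inside AHSG, chr3:186614876-186615202 was gained with SOX2 alone at top 75.2%, with its fusion entry failing at an IDR of 0.0543. The AHSG site chr3:186616797-186617836 was open in every list of the set, at top 17.2% in the wild type, 25.5% with SOX2 and 23.4% with the fusion. Regions lost with both included one at the FETUB promoter, chr3:186640424-186640770, whose entries failed with IDRs of 0.151 with SOX2 and 0.337 with the fusion. The DNAJB11 promoter stood at top 5.68%, 4.78% and 2.02%, the TBCCD1 promoter at top 52.8%, 50.0% and 34.7%, and chr3:186589634-186590523 also passed in all 3 lists.

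**Figure D5:**
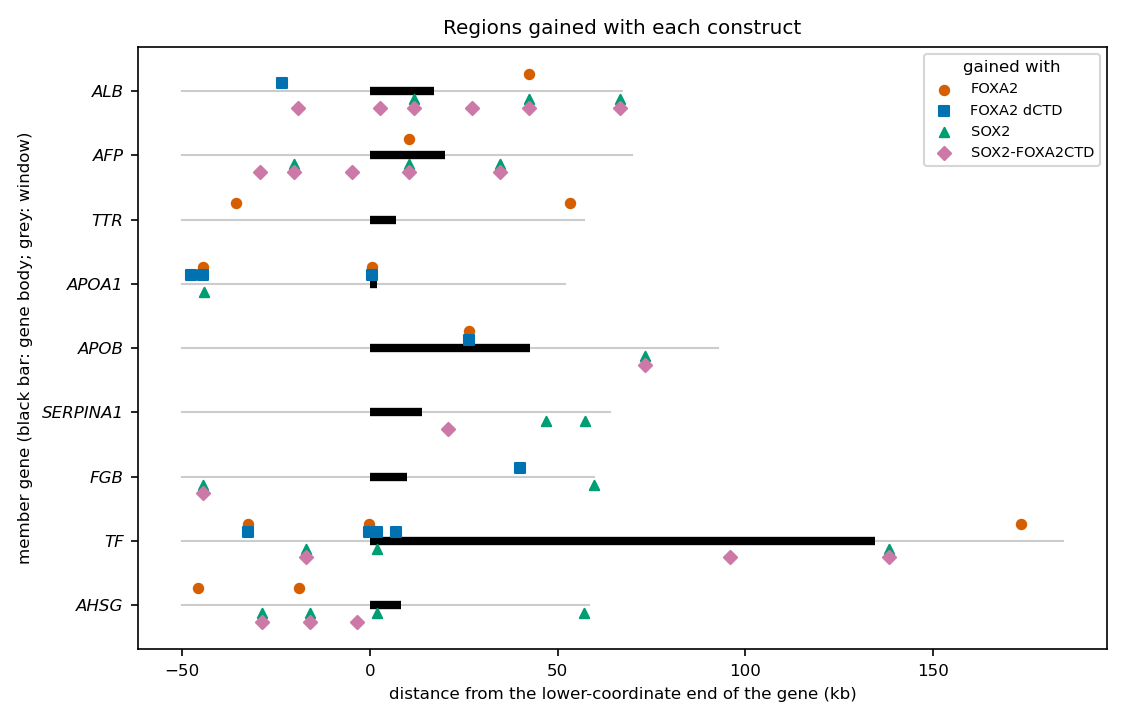
Positions of the regions gained with each construct, as distance in kb from the lower-coordinate end of each member gene (black bar, gene body; grey line, window). ALB and AFP carry the most fusion-gained regions (6 and 5), TTR has gained regions for full-length FOXA2 only, and SERPINA1 has none gained with a FOXA2 construct.

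By gene, 7 of the 9 windows held at least 1 region gained with full-length FOXA2, where 73.4% of all protein-coding gene windows did, and 5 of 9 held one gained with the CTD deletion, against 68.8%. For SOX2 the count was 8 of 9 against 75.3%, for the fusion 7 of 9 against 76.8%, and for either FOXA2 construct 8 of 9 against 83.0%. With equal numbers of peaks the FOXA2 counts were 0 and 1 and those for SOX2 and the fusion 5 and 5. The share of all gene windows was not counted at that setting. Having a gained region nearby was thus the usual state of a gene here, at these list lengths. Within the gene bodies alone, 4 members had a region gained with full-length FOXA2 (33.9% of all protein-coding gene bodies did), 3 one gained with the CTD deletion (30.2%), 4 with SOX2 (33.7%) and 3 with the fusion (35.8%).

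A further 52 genes of plasma proteins, among them other apolipoproteins, serpins, clotting factors and complement proteins, showed counts below the background. At least 1 region gained with full-length FOXA2 lay in 31 windows (59.6%, against 73.4%), and 26 had one gained with the CTD deletion (50.0%, against 68.8%). With SOX2 the count was 35 (67.3%, against 75.3%) and with the fusion 32 (61.5%, against 76.8%). The exception was loss with full-length FOXA2, found in 5 windows (9.62%, against 1.99%): PROS1, CP, C9 and, through the site beside FGB, FGA and FGG. Leaving out the 11 genes whose windows overlap a member's, 24, 20, 26 and 28 of 41 windows held a gained region and 3 a lost one. Neighbouring genes on this list, such as FGA and FGG, share sites that count for each gene, so the windows are not independent of each other. These windows were not tested as a set.

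The cell type markers set limits on what the lists can show. Of 7 osteoblast or mesenchymal genes, 4 had a promoter entry, and a peak lay at 3 and 1 of them in the labelled wild-type lists, 3 and 3 with full-length FOXA2, 1 and 4 with the CTD deletion, and 4, 3 and 4 in the SOX2-set wild-type, SOX2 and fusion lists. Of 5 hepatocyte transcription factor genes with an entry, between 0 and 2 had a peak in any list, and FOXA3 and NR1H4 had none in all 9. A peak lay in the FOXA2 gene in every list, at top 32.8% and 1.88% in the labelled wild type, 0.100% to 1.06% with the FOXA2 constructs and 48.6% to 83.2% in the SOX2 set. The gene-body peak at top 1.88% in labelled wild-type library 2 stands closer to the construct libraries than to its replicate, and the part of this in the calls was not tested.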

How the data were processed

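ATAC-seq peak lists of 12 U2OS samples were analysed. Per the submitters' processing notes, the authors' tools included Trim Galore, Bowtie2 (version 2.4.4), SAMtools (version 0.1.18) and MACS2, with hg38 as build. In the FOXA2 set the authors deposited 1 MACS2 list per library, with a fold enrichment ratio, a −log10 p and a score. In the SOX2 set the deposited lists, 1 per group, give a −log10 p and a score for the IDR, and 3 samples have no list of their own. Read depth is not given in the sources used here, so the number of peaks in a list stands in its place.

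Peaks on chromosomes 1 to 22 and X were kept, and SOX2-set entries at a global IDR of at most 0.05. Overlapping peaks (1 bp or more) of a set were merged into regions. Rank 1 is the largest −log10 p in a list, and ties share the lowest rank. Gene positions came from a RefSeq table (GRCh38.p14), which gives gene ends but no exons. All 9 genes and all 52 further plasma protein genes were found in it. Every site in both libraries of a FOXA2 construct and every passing SOX2-set site in 2 or more lists is named, and of single-list sites the strongest. Promoters were RefSeq sequences. Motifs at peak summits were planned, and promoters were searched instead, since no genome was used here. Interval code was tested on simulated data. Alternatives covered list length, thresholds, overlap, flanks and left-out libraries. The members and lists were chosen with earlier results of these data known. Analysis used Python 3.11.15, pandas 2.3.3 and SciPy 1.17.1.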

Additional observations from a re-analysis of the deposited data

How the results depend on the processing

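Most counts in the member windows moved with the settings. Where a setting changed the calls, the share over all regions was not counted again. For the FOXA2 set, gained regions with the full-length factor and the CTD deletion numbered 11 and 10 as reported, 0 and 1 with equal numbers of peaks, 4 and 3 with 1 −log10 p threshold for all lists, and 4 and 4 when a peak had to cover 50% of the region. Without a flank they were 4 and 5, with a 10 kb flank 4 and 5, and with a 100 kb flank 20 and 22. Within the lists with mitochondrial peaks the full-length count was 54, and within those without it was 18. Leaving out 1 library gave 13 to 50 for the full-length factor and 11 to 44 for the CTD deletion. Lost regions with the full-length factor numbered 0 at 50% coverage, 0 without a flank, 3 within the lists with mitochondrial peaks, and 1 to 3 without 1 library. Lost regions with the CTD deletion numbered 1 with equal numbers, 2 within the lists with mitochondrial peaks, and 0 to 2 without 1 library. The full-length-only minus CTD-deletion-only difference was 0, became -1 with equal numbers and 1 at the common threshold, and ran from -26 to 31 without 1 library.

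For the SOX2 set, gained regions with SOX2 numbered 28 with all entries, 10 at an IDR of 0.01, 9 with no wild-type entry at any IDR, 4 with equal numbers, and 4 and 5 with no flank and a 10 kb flank. For the fusion they were 45 with all entries and 4, 8 and 26 with flanks of 0, 10 and 100 kb. Lost regions with SOX2 were 23 with all entries, 6 at an IDR of 0.01, 6 with no construct entry at any IDR, and 2 and 5 with no flank and 10 kb. With the fusion they were 7 at an IDR of 0.01, 2 with no construct entry at any IDR, 19 with equal numbers, and 3 and 7 with no flank and 10 kb. Members with at least 1 gained region fell with equal numbers to 0 for full-length FOXA2, 1 for the CTD deletion and 5 for SOX2. With no flank they were 4, 3, 4 and, for the fusion, 3, and with a 10 kb flank 4, 3 and 4 for the first 3 constructs. Of 106 alternatives, 46 stayed within 1.5 times the reported count and 60 did not. Beyond what list length and window size set by construction, the cause was not tested. Ranking by fold enrichment moved the mean top percent of a named gained site by at most 6.02 percentage points, and ranking by IDR in the SOX2 set by at most 59.9. The IDR ranking used the lists' score, in which the strongest entries tie and share the first rank. The largest shift was of this kind: chr4:73470333-73471241 went from top 59.9% to a tied top 0.0015% of the SOX2 list. Shifts of that size therefore reflect ties in the score and not a finer order by IDR.

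The calls come from no test, and a rule that asks for both libraries of a group does not use their replicate numbers. For the share of a list's peaks in the windows, a paired comparison within replicate numbers (a replicate block, chosen after seeing the data) gave differences of -0.00242 and 0.0135 percentage points for full-length FOXA2 (mean 0.00555, exact sign-flip permutation p of 1.0) and 0.00159 and 0.00955 for the CTD deletion (mean 0.00557, exact p of 0.5, the smallest 2 pairs allow). With 2 pairs the data cannot show whether the numbers pair the libraries. Depth is not known, 2 libraries per group cannot pass an exact test, and the SOX2 set has no replicate lists, so an absent peak shows only that none was called at that list's depth and threshold.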

Other observations

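Single-list regions made up most of the member windows, and the strongest of the 75 by rank as a share of the list lay in APOB at chr2:21043119-21043371, at rank 15921 (top 10.8%, 5.0-fold) in CTD-deletion list 2. Next came chr3:133821750-133822162 in SRPRB, at top 12.9% of the same list, and chr3:186589846-186590096, 4053 bp from DNAJB11, at top 13.8% of the same list. These 3 regions had a passing entry in the SOX2-set wild-type list. With a peak in 1 library of 6, none of them was called gained or lost.

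At the fibrinogen genes, a peak at chr4:154614019-154614522, 1363 bp from FGG, was in full-length list 1 alone at top 18.5% (4.42-fold). It was in no other list of the FOXA2 set and had no passing entry in the SOX2-set wild type.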
